A study of Homo sapiens with 9 samples.

Results

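The genes described here encode the initiation factors eIF1 to eIF6 and the elongation factors eEF1 and eEF2, with their subunits, inhibitors and modifying enzymes. They were taken by name: a gene belonged if its symbol began with EIF1 to EIF6 or EEF1 to EEF2, if it was annotated with a protein-coding transcript, and if it was not one of the eIF2 kinases, whose symbols begin with EIF2AK. 66 of the 61544 listed genes met this rule, and 10 of them had protein coding as their sole annotation. EIF1AY is not reported here. Of the other members, 59 had enough reads to be tested among 14727 tested genes. The data are RNA-seq of HMC3, an immortalized human microglial cell line of wild-type genotype, in 9 libraries of polyadenylated RNA with 3 in each group. In SLO the cells received SBI-0206965 at 10 µM, O-151 at 1 µM and Lopinavir at 1 µM for 6 days, in SLO ½ they received the same compounds at 5, 0.5 and 0.5 µM, and in VEH the solvent DMSO. These compounds are described as an autophagy (ULK1) inhibitor, a DNA glycosylase inhibitor and a blocker of Lamin A biosynthesis, and the question was how aging-like treatment alters microglia-like cells. The labels do not say whether the libraries of a group came from separate cultures, and the legends of the study speak of independent experiments without saying whether this covers the sequencing. If libraries share a culture, each p-value measures only the spread between these libraries, which may be technical.

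The label microglia was checked against 12 marker genes. 9 of them had at most 10 reads in every library, among them AIF1, CX3CR1, TMEM119 and P2RY12, and P2RY12 and C1QA had no read at all. Markers of fibroblasts and pericytes summed to between 1440 and 1670 TPM (a level scaled for gene length and library size) in VEH, between 1760 and 1800 in SLO ½, and between 2110 and 2210 in SLO. Most of this sum was COL1A1, with a mean of 1237 TPM in VEH and 1719 in SLO. Of these 10 markers, COL3A1, LUM and DCN had too few reads to test. Of the 7 tested, 6 rose in SLO (85.7%, beside 32.9% of all tested genes) and PDGFRB fell (-0.28). The list thus does not show a uniform profile of these cell types. The marker sum was higher at the higher dose while most translation factors were lower, and its part in the results below was not tested. Reads on genes numbered 14834295 to 19674841 per library, and the members took 1.24% to 1.56% of them.

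Translation begins when eIF2, loaded with GTP and the initiator tRNA, joins the small ribosomal subunit together with eIF1, eIF1A, eIF3 and eIF5. The eIF4 factors bind the mRNA cap and unwind the leader, eIF2B recharges eIF2 with GTP, and eIF5B joins the subunits. In elongation, eEF1A brings each aminoacyl-tRNA, the eEF1B subunits recharge eEF1A, and eEF2 moves the ribosome along by one codon. Many of these mRNAs belong to the 5′TOP class, which start with a C followed by an unbroken run of pyrimidines (C or T bases) and whose translation is governed by the kinase complex mTORC1 and the RNA-binding protein LARP1.

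The 30 bases around the annotated start site are shown for 8 members that carry such a run and fell with treatment, and for 2 members that lack one and rose. Each holds 15 bases before the start and 15 from it, read 5′ to 3′ along the gene's strand from RefSeq promoters of GRCh38.p14, and capitals mark the unbroken C or T run over the start. The windows were picked by both the run and the direction of change, so the display cannot show how the 2 relate. Of 34 tested members without a run of at least 5 bases, 20 fell in SLO (58.8%) and 3 rose. Of all tested genes, 32.1% fell and 32.9% rose.
EEF1A1: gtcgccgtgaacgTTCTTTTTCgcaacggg
EEF2: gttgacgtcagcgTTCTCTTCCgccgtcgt
EEF1B2: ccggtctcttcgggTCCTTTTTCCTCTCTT
EIF4B: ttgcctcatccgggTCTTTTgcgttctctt
EIF2A: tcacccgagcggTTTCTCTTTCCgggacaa
EIF2S3: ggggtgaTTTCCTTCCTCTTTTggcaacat
EIF3D: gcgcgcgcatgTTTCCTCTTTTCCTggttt
EIF3F: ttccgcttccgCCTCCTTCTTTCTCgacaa
EIF4EBP2: ctcccgccttcgcccgcttccggtcgtcgt
EIF5A2: cccgccccgtctcttggaactgccgcggcc

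The windows lie at chr6:73521018-73521047 on the minus strand for EEF1A1, chr19:3985449-3985478 on the minus strand for EEF2, chr2:206159880-206159909 on the plus strand for EEF1B2, chr12:53006441-53006470 on the plus strand for EIF4B, chr3:150546772-150546801 on the plus strand for EIF2A, chrX:24054941-24054970 on the plus strand for EIF2S3, chr22:36529152-36529181 on the minus strand for EIF3D, chr11:7987322-7987351 on the plus strand for EIF3F, chr10:70404130-70404159 on the plus strand for EIF4EBP2, and chr3:170908623-170908652 on the minus strand for EIF5A2. EEF1B2 is drawn at the one of its annotated starts that carries the run, which is 17 bases long and extends past the end of the window.

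Most translation factor genes fell under SLO. Of 59 tested members, 43 fell (72.9%) and 4 rose against VEH, where 32.1% of all tested genes fell and 32.9% rose (edgeR quasi-likelihood test, Benjamini-Hochberg adjusted p below 0.05 over all 14727 genes). The median log2 fold change of the members was -0.28, beside 0.014 for all tested genes. Under SLO ½, 27 members fell (45.8%) and 5 rose, where 25.3% of all tested genes fell and 26.7% rose, and the median of the members was -0.11 beside 0.015. The count that rose in SLO ½ was 3 without VEH replicate 1 or SLO ½ replicate 3 and 2 without SLO ½ replicate 2. Between SLO and SLO ½, which share no library, 39 members were lower (66.1%) and 3 higher in SLO, where 20.3% of all tested genes were lower and 20.8% higher. Both comparisons with VEH share the 3 VEH libraries, so each dose is given with its own values. RNA-seq measures shares of a library, so less of these RNAs per cell cannot be told apart from more RNA of other genes or from fewer cells of one kind.

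**Figure D1:**
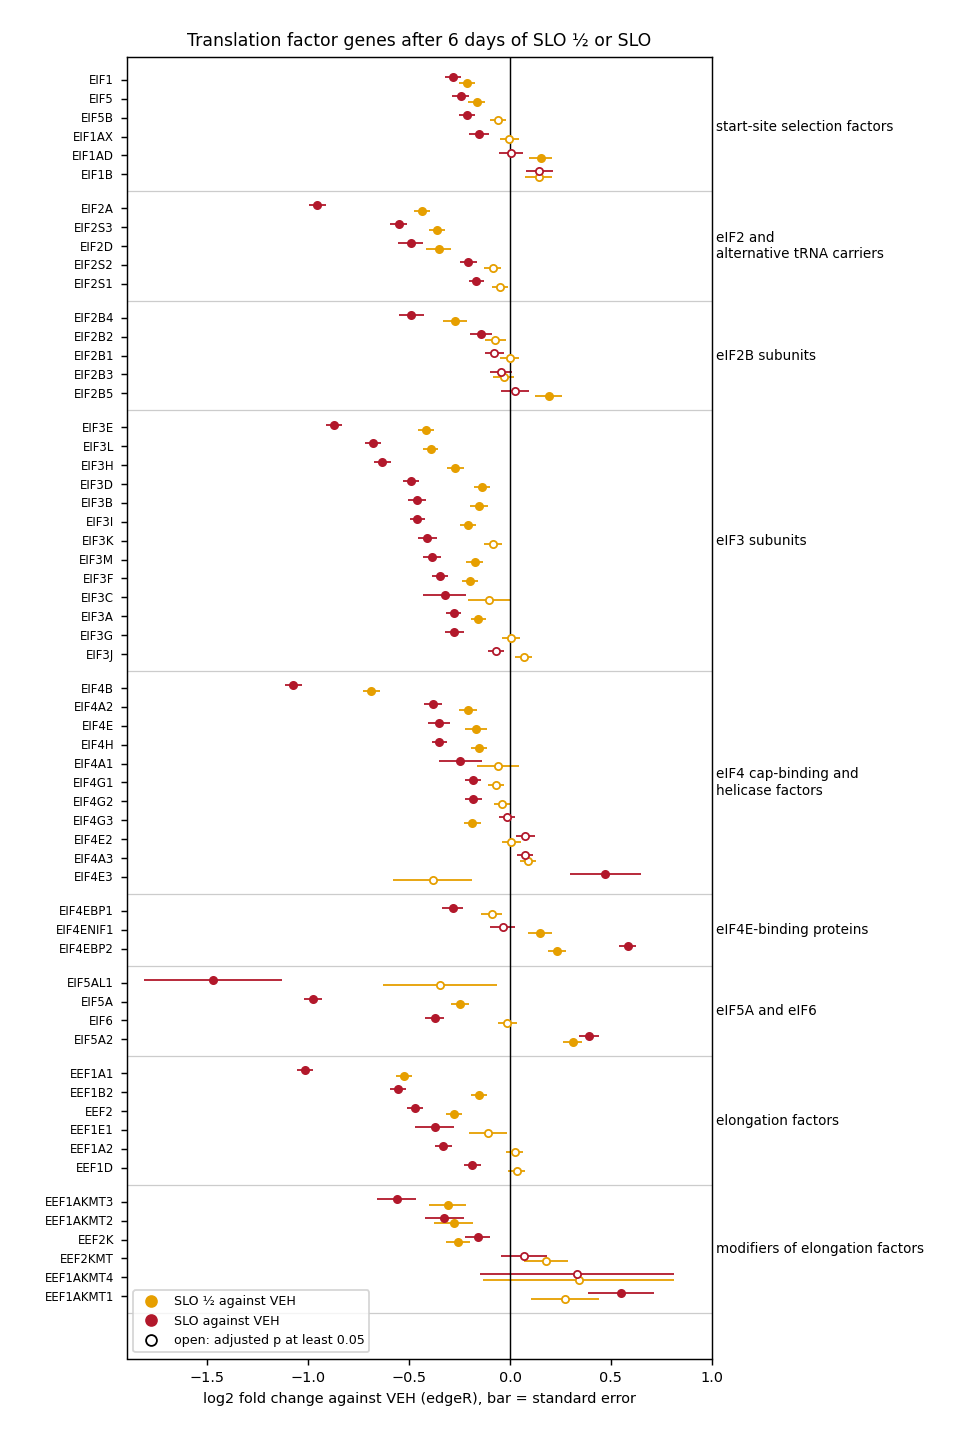
Log2 fold change against VEH (horizontal axis, edgeR, bars show the standard error) of the 59 tested members, grouped by role, with SLO ½ in orange, SLO in red and open points for adjusted p of at least 0.05. EIF4B lies at -1.07 in SLO and -0.69 in SLO ½, and most red points lie left of the orange ones.

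Added over all members, the level was 14230, 14140 and 14440 TPM in the 3 VEH libraries, 12380, 12150 and 12330 in SLO ½, and 11070, 10600 and 10860 in SLO. The groups did not overlap, and the SLO mean was 0.760 times and the SLO ½ mean 0.861 times the VEH mean. In TPM of uniquely placed reads, EEF2 was the highest of the counted members in every group. In CPM (counts scaled for library size and not for length), EIF4G2 was higher than EEF2 in SLO (1632 ± 27.5 beside 1552 ± 27.2, SD, n = 3). EEF1G, listed at 0, and EEF1A1, whose reads can also match its pseudogenes, may rank higher than these counts show. The same holds for EIF4A1, which shares exons with other genes, and EIF3C, which has a near-identical copy. EEF2 stood at 2520.0 ± 57.5 TPM in VEH (SD, n = 3), followed by EIF4G2 at 1026 ± 52.1 and EIF5A at 832 ± 38.9. EIF2S2 at 695 ± 18.7 and EIF1 at 637 ± 24.1 came next. EIF4B, EIF4A2, EEF1A2 and EIF2S3 followed between 463 and 517 TPM, each with a neighbour whose libraries it overlapped. In SLO the order below EIF4G2 was EIF2S2 (599.8 ± 31.4 TPM), EIF1 (522 ± 8.79) and then EIF5A (420.3 ± 17.6), which had moved down 2 places.

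**Figure D2:**
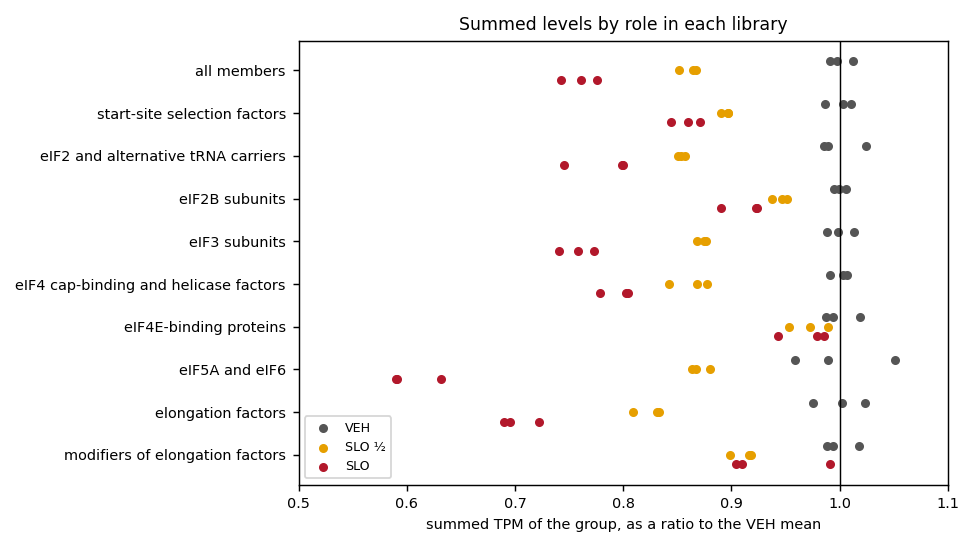
Summed TPM of each role group in every library, as a ratio to the VEH mean (horizontal axis; each point is 1 library; the axis starts at 0.5). The ratio for eIF5A and eIF6 averaged 0.605 in SLO and for the elongation factors 0.702, while eIF4E-binding proteins averaged 0.969.

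All 6 tested elongation factors fell under SLO, beside 32.1% of all tested genes, and 3 of them (50%) under SLO ½, beside 25.3%. EEF1A1, which delivers aminoacyl-tRNA to the ribosome (chr6:73489308-73525587, GRCh38), measured 420.2, 404 and 423 TPM in VEH, 283, 276 and 284 in SLO ½ and 214, 198 and 201 in SLO. The 3 groups stood apart in order of dose, with log2 fold changes against VEH of -0.52 ± 0.04 (SE, adjusted p = 6.88e-12) in SLO ½ and -1.02 ± 0.04 (SE, adjusted p = 9.34e-19) in SLO. Reads that matched several places were not counted, and 42 pseudogene rows of EEF1A1 together held 0.574% to 1% as many reads as the gene, and its change rests on 6502 to 17243 reads per library. EEF1A2, the neuronal and muscle paralog that carries out the same step, measured 496, 451 and 478 TPM in VEH, 478, 454 and 475 in SLO ½ and 393, 367 and 367 in SLO. It overlapped VEH at the lower dose (0.023, adjusted p = 0.673) and fell at the higher dose, by -0.33 ± 0.042 (SE, adjusted p = 7.27e-08).

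EEF2, the translocation factor, measured 2584, 2472 and 2502 TPM in VEH, 2034, 1976 and 2044 in SLO ½ and 1844, 1780.3 and 1794 in SLO, again without overlap. Its log2 fold change was -0.28 in SLO ½ and -0.47 ± 0.039 (SE, adjusted p = 1.34e-11) in SLO. EEF1B2, a subunit of the exchange factor that recharges eEF1A, stood at 448, 424 and 448 TPM in VEH, 388, 382 and 382 in SLO ½ and 307, 289.5 and 297 in SLO, where it fell by -0.56 ± 0.041 (SE, adjusted p = 1.09e-12). EEF1D, another subunit of that exchange factor, had 103, 102 and 104 TPM in VEH, 99.4, 107 and 99.7 in SLO ½ and 92.8, 89.7 and 86.9 in SLO. SLO ½ overlapped VEH for EEF1D (0.032, adjusted p = 0.552), and SLO lay below both (-0.19, adjusted p = 3.85e-04). EEF1E1, a scaffold protein of the aminoacyl-tRNA synthetase complex, changed by -0.37 in SLO (adjusted p = 0.00141). The third exchange subunit, EEF1G, was listed at 0 in every library. In GENCODE v44, 99.7% of its exon bases lie under another gene on the same strand, which itself held 3 to 9 reads, and STAR's gene counts leave out reads that lie on 2 genes of a strand as ambiguous, so a level of EEF1G cannot be read from these counts.

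Of the eIF5A and eIF6 genes, 3 of 4 fell in SLO (75%) and 1 rose (25%), beside 32.1% and 32.9% of all tested genes. EIF5A, the hypusine-carrying factor that helps ribosomes past difficult sequences (chr17:7306999-7312463), had 801, 819 and 876 TPM in VEH, 667, 700.4 and 673 in SLO ½ and 441, 411 and 409 in SLO. The larger part of its drop lay between the doses: the log2 fold change was -0.25 in SLO ½ against VEH, -0.98 ± 0.044 (SE, adjusted p = 1.34e-17) in SLO against VEH and -0.73 ± 0.044 (SE, adjusted p = 1.09e-13) in SLO against SLO ½. Its paralog EIF5A2, which carries the same modification, moved the other way, with 49.3, 55.2 and 55.2 TPM in VEH, 63.2, 62.5 and 66.9 in SLO ½ and 70.5, 67.3 and 70.97 in SLO. EIF5A2 rose by 0.31 ± 0.049 (SE, adjusted p = 4.73e-06) at the lower dose and 0.39 ± 0.049 (SE, adjusted p = 5.06e-08) at the higher dose. EIF6, which keeps the large ribosomal subunit from joining too early, had 264, 276 and 291 TPM in VEH, 277, 260.4 and 263 in SLO ½ and 224, 209 and 207 in SLO. SLO ½ overlapped VEH (-0.013, adjusted p = 0.837) and SLO did not (-0.37, adjusted p = 6.09e-08). The third gene that fell, EIF5AL1, is a near-identical copy of EIF5A with 5 to 25 reads per library, and reads of the 2 genes cannot be told apart with certainty.

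Of 8 tested enzymes that make hypusine on eIF5A and diphthamide on eEF2, 3 fell (37.5%) and 1 rose in SLO (median -0.059), near the 32.1% of all tested genes that fell. In SLO ½, 2 fell (25%) and 3 rose, beside 25.3% and 26.7% of all tested genes. DPH5, an enzyme of diphthamide synthesis, fell by -0.85 ± 0.078 (SE, adjusted p = 1.36e-10) in SLO, and DPH6, the enzyme of its last step, by -0.38 ± 0.13 (SE, adjusted p = 0.0101).

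All 5 tested members of eIF2 and the alternative carriers of initiator tRNA fell in SLO, and 3 (60%) fell in SLO ½. Over all tested genes, 32.1% fell in SLO and 25.3% in SLO ½. EIF2A, a factor that can place the initiator tRNA without eIF2, had 144, 137 and 143 TPM in VEH, 102, 103 and 99.4 in SLO ½ and 71.5, 73.8 and 72.8 in SLO. The groups were well apart, with log2 fold changes of -0.44 ± 0.041 (SE, adjusted p = 4.99e-10) in SLO ½ and -0.96 ± 0.042 (SE, adjusted p = 1.23e-17) in SLO. EIF2S3, the GTP-binding gamma subunit of eIF2, had 459, 463 and 467 TPM in VEH, 358, 339 and 352 in SLO ½ and 318, 295 and 329.9 in SLO, where it fell by -0.55 ± 0.041 (SE, adjusted p = 1.28e-12). The alpha and beta subunits fell less: EIF2S1 changed by -0.17 and EIF2S2 by -0.21 in SLO (adjusted p = 5.32e-04 and 1.08e-04), and neither passed the test in SLO ½. EIF2D, which can also deliver initiator tRNA, had 30.4, 26.9 and 27.2 TPM in VEH, 22.6, 20.5 and 21.1 in SLO ½ and 21.1, 20.03 and 18.5 in SLO. It fell in both doses (-0.35 and -0.49), and the doses overlapped each other.

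Of the 5 eIF2B subunits, which form the exchange factor for eIF2, 2 fell in SLO (40%) and none rose, with a median of -0.077. This share is near the 32.1% of all tested genes that fell, and a difference from the other role groups was not tested. EIF2B4, the delta subunit, had 36.4, 37.1 and 36.6 TPM in VEH, 30.8, 29.4 and 28.3 in SLO ½ and 27.6, 26.5 and 23.8 in SLO, a drop of -0.49 ± 0.062 (SE, adjusted p = 7.09e-08) at the higher dose. EIF2B2, the beta subunit, fell by -0.14 ± 0.053 (SE, adjusted p = 0.0192), a call that was lost when VEH replicate 1, SLO replicate 2 or SLO replicate 3 was left out (adjusted p = 0.0855, 0.0567 and 0.056). EIF2B1, the alpha subunit, did not pass (-0.077, adjusted p = 0.136). EIF2B5, the catalytic subunit, rose in SLO ½ (0.19, adjusted p = 0.017) and was at 0.024 in SLO (adjusted p = 0.774). The rise was lost without VEH replicate 1 or SLO ½ replicate 2 (adjusted p = 0.0692 and 0.0979) and in DESeq2 (0.0547). Among the 4 kinases that phosphorylate eIF2 and the 2 phosphatase subunits that reverse it, 3 rose and 3 fell in SLO. That is 50% each, beside 32.9% and 32.1% of all tested genes. PPP1R15A, the stress-induced phosphatase subunit, rose by 0.55 ± 0.043 (SE, adjusted p = 3.36e-12), and PPP1R15B, its constitutive counterpart, by 0.31 ± 0.043 (SE, adjusted p = 3.07e-07).

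Of the 13 tested subunits of eIF3, the scaffold that holds the initiation complex together, 12 fell in SLO and none rose, with log2 fold changes from -0.87 to -0.28 among those that fell, and 9 fell in SLO ½. The shares that fell were 92.3% in SLO and 69.2% in SLO ½, beside 32.1% and 25.3% of all tested genes. EIF3E had 49.3, 47.8 and 52.5 TPM in VEH, 36.5, 35.3 and 37.1 in SLO ½ and 27.7, 26.2 and 27.5 in SLO. This drop of -0.87 ± 0.041 (SE, adjusted p = 5.00e-17) was the greatest among the subunits, and the change in SLO ½ was -0.42. EIF3E has 37761 annotated exon bases in GENCODE v44, beside 6431 for EIF3H, and TPM is scaled for gene length. In CPM it stood at 400.3 ± 18.9 in VEH (SD, n = 3), above EIF3H at 319.8 ± 10.1. EIF3L, which pairs with EIF3K in the complex, had 298, 290.3 and 292 TPM in VEH, 223, 209.5 and 219 in SLO ½ and 179, 185 and 183 in SLO, a change of -0.68 ± 0.039 (SE, adjusted p = 3.85e-15). 41.1% of its exon bases are shared with another annotated gene on the same strand. EIF3H, a subunit next to EIF3E, had 235, 226 and 240.4 TPM in VEH, 189, 184 and 193 in SLO ½ and 157, 141 and 152 in SLO, and fell by -0.63 ± 0.042 (SE, adjusted p = 1.09e-13).

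EIF3D, a subunit that can bind the cap of some mRNAs, EIF3B and EIF3I, the 2 beta-propeller subunits, and EIF3K fell between -0.49 and -0.41 in SLO. EIF3M, EIF3F, EIF3C, EIF3A and EIF3G fell between -0.39 and -0.28. EIF3G, an RNA-binding subunit, had 144, 139 and 153 TPM in VEH, 138, 145 and 143 in SLO ½ and 119, 118 and 122 in SLO, so SLO ½ overlapped VEH (0.0056, adjusted p = 0.927) while SLO lay below both. EIF3J, a loosely attached subunit that helps recruit the others, was the subunit that did not pass in SLO (-0.069, adjusted p = 0.147). EIF3C was counted at 5.21 to 7.56 TPM, far below the other subunits, and has a near-identical copy, EIF3CL, with 0 or 1 read per library, so its level is uncertain.

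Of the 11 tested eIF4 genes, 7 fell (63.6%) and 1 rose in SLO, beside 32.1% and 32.9% of all tested genes. In SLO ½, 5 fell (45.5%), beside 25.3% of all tested genes. EIF4B, which stimulates the helicase eIF4A (chr12:53006282-53042215), had 531, 498 and 522 TPM in VEH, 319, 298 and 319 in SLO ½ and 246, 229 and 259 in SLO. It fell by -0.69 ± 0.043 (SE, adjusted p = 1.29e-13) at the lower dose and -1.07 ± 0.044 (SE, adjusted p = 2.10e-18) at the higher dose, the lowest values of any member after the sparsely counted EIF5AL1, which was lower in SLO. EIF4H, a smaller relative that also stimulates eIF4A, stood at 213, 209.7 and 212 TPM in VEH, 185, 182 and 187 in SLO ½ and 169.6, 159 and 167 in SLO (-0.35, adjusted p = 4.80e-09). EIF4A2, a helicase, had 535, 469 and 481 TPM in VEH, 426, 415 and 408 in SLO ½ and 384, 382 and 367 in SLO (-0.38, adjusted p = 1.83e-08). Its paralog EIF4A1 was counted at only 11.2 to 15.6 TPM, with 47.4% of its exon bases shared with other genes on its strand, and its change of -0.25 ± 0.11 (SE, adjusted p = 0.0467) was lost without VEH replicate 2 or 3 or SLO replicate 1 or 3 (adjusted p from 0.0936 to 0.189) and in DESeq2 (0.0719). EIF4A3, a helicase that serves the exon junction complex in the nucleus and not translation, did not pass in SLO (0.075). It passed as higher in SLO when libraries were scaled by size alone (0.15, adjusted p = 0.00135) and without SLO replicate 2 (0.10, adjusted p = 0.0422). With at least 10 counts in every library it passed too (0.099, adjusted p = 0.0296). In SLO ½ it passed in these 2 scaling and filter settings (adjusted p = 0.0037 and 0.0231) and without VEH replicate 2 (0.0469).

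EIF4E, the cap-binding protein, had 45.2, 45.3 and 49.1 TPM in VEH, 40.2, 39.4 and 41.5 in SLO ½ and 36.4, 35.00 and 37.7 in SLO, a fall of -0.35 ± 0.055 (SE, adjusted p = 2.17e-06). At the lower dose it changed by -0.17 (adjusted p = 0.00986, and 0.0746 without VEH replicate 3). EIF4E2, a cap-binding relative known for repressing mRNAs, had 38.9, 37.6 and 39.9 TPM in VEH, 38.4, 38.8 and 36.3 in SLO ½ and 38.8, 41.3 and 42.03 in SLO, and the groups overlapped (0.075 in SLO, adjusted p = 0.16, and 0.15 with adjusted p = 0.00641 when scaled by library size alone). EIF4E3, another cap-binding protein, was the one eIF4 gene called higher in SLO, at 1.34, 1.32 and 1.14 TPM in VEH, 1.09, 0.902 and 0.819 in SLO ½ and 1.89, 1.38 and 1.99 in SLO. It rested on 32 to 72 reads per library, and the call (0.47, adjusted p = 0.0212) was lost without VEH replicate 3 or SLO replicate 1 or 3 (0.0914, 0.0788 and 0.106) and in DESeq2 (0.068). EIF4G1, a scaffold that links the cap to the ribosome, and its truncated relative EIF4G2 fell slightly in SLO (-0.18 and -0.18, adjusted p = 1.71e-04 and 3.10e-04). EIF4G3 had 86.2, 84.9 and 79.9 TPM in VEH, 72.6, 68.8 and 72.8 in SLO ½ and 79.99, 81.99 and 84.9 in SLO. It fell in SLO ½ (-0.19, adjusted p = 3.80e-04), overlapped VEH in SLO (-0.015, adjusted p = 0.757) and was higher in SLO than in SLO ½ (0.17, adjusted p = 0.00134).

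**Figure D3:**
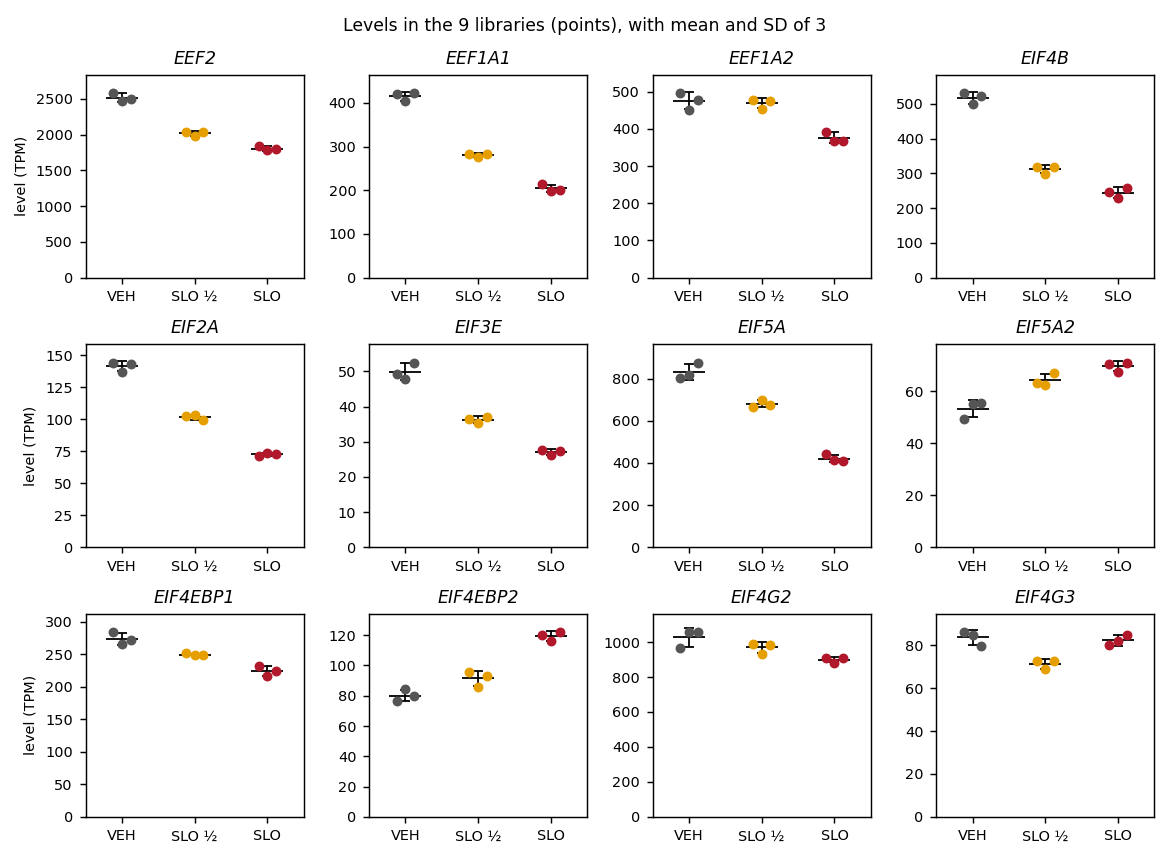
Level in TPM (vertical axis, from 0) of 12 members in each of the 9 libraries, with the mean (bar) and SD of the 3 libraries of VEH, SLO ½ and SLO. EEF1A1, EIF4B, EIF2A and EIF3E step down with dose, EIF5A2 and EIF4EBP2 lie higher in both doses than in VEH, and EIF4G3 is lowest in SLO ½.

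The 4E-binding proteins hold eIF4E away from eIF4G until mTORC1 phosphorylates them. EIF4EBP2 had 76.6, 84.3 and 79.6 TPM in VEH, 95.6, 85.9 and 93.02 in SLO ½ and 120.1, 116 and 122 in SLO. It rose in step with dose, by 0.23 ± 0.043 (SE, adjusted p = 4.84e-05) in SLO ½ and 0.58 ± 0.043 (SE, adjusted p = 1.13e-12) in SLO, the largest rise of any member. EIF4EBP1 had 284, 266 and 272 TPM in VEH, 252, 249 and 249 in SLO ½ and 231, 216 and 224 in SLO, and fell in SLO by -0.28 ± 0.053 (SE, adjusted p = 3.03e-05). At the lower dose EIF4EBP1 did not pass in edgeR (-0.091, adjusted p = 0.143), although limma on log2(TPM + 1) called it (-0.13, adjusted p = 0.0101). EIF4ENIF1, which carries eIF4E into the nucleus, had 28.9, 26.97 and 29.6 TPM in VEH, 31.6, 30.2 and 30.4 in SLO ½ and 25.7, 28.96 and 28.3 in SLO. Its rise in SLO ½ (0.15, adjusted p = 0.0349) was lost without any one of VEH replicate 2 or the SLO ½ replicates (adjusted p from 0.0667 to 0.156) and in DESeq2 (0.111). Summed over the group, the level was 383 ± 6.43 TPM in VEH and 371 ± 8.72 in SLO, but 216 ± 2.16 and 269 ± 5.18 in CPM (counts scaled for library size and not for length), since EIF4EBP2 has more CPM for each TPM than EIF4EBP1.

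In the mTORC1 pathway and the kinases that phosphorylate eIF4E, 5 of 19 genes rose and 5 fell in SLO (26.3% each), with a median of -0.014. These shares lay below the 32.9% and 32.1% of all tested genes that rose and fell. MKNK1 and MKNK2, the eIF4E kinases, rose by 0.72 ± 0.066 (SE, adjusted p = 8.50e-11) and 0.42 ± 0.049 (SE, adjusted p = 1.94e-08).

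Several members have a paralog, and the balance within a pair was followed as the ratio of their TPM in each library. 7 pairs were compared by an exact two-sided permutation test on the log2 ratio, which with 3 libraries against 3 cannot give a p below 0.10, and no p was therefore below the threshold before or after adjustment. The ratio of EIF5A2 to EIF5A was 0.0616, 0.0674 and 0.0631 in VEH, 0.0947, 0.0892 and 0.0993 in SLO ½ and 0.160, 0.164 and 0.174 in SLO, a log2 difference of 0.56 for the lower and 1.37 for the higher dose. EIF5A2 thus made up 5.80%, 6.32% and 5.93% of the pair in VEH and 13.8%, 14.1% and 14.8% in SLO. The ratio of EEF1A2 to EEF1A1 was 1.18, 1.12 and 1.13 in VEH, 1.69, 1.65 and 1.67 in SLO ½ and 1.84, 1.86 and 1.83 in SLO. Here most of the shift was already present at the lower dose (0.55, against 0.69 in SLO), at which EEF1A1 fell and EEF1A2 did not pass the test. Reads of EEF1A1 that also match its pseudogenes were not counted, and TPM also rests on the annotated length of each gene. The level of this ratio therefore cannot be taken as that of the RNAs. In CPM, which is not scaled for length, EEF1A1 was higher than EEF1A2 in VEH (888.9 ± 24.7 beside 487.4 ± 26, SD, n = 3). This held in SLO as well (439 ± 18.1 beside 387.3 ± 14.9). Over all genes, reads that matched several places made up between 8.35% and 8.52% of a VEH library, between 7.83% and 7.95% with SLO ½, and between 7.16% and 7.31% with SLO. Their part in the shift was not tested. The ratio of EIF4EBP2 to EIF4EBP1 was 0.269, 0.317 and 0.293 in VEH, 0.38, 0.345 and 0.374 in SLO ½ and 0.519, 0.537 and 0.545 in SLO (0.32 and 0.87). In these 3 pairs no SLO ½ or SLO library overlapped VEH.

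The ratio of EIF1B to EIF1 moved by 0.35 in SLO ½ and 0.42 in SLO, and that of EIF4E2 to EIF4E by 0.17 and 0.42, also without overlap with VEH. EIF4G3 to EIF4G1 was the pair whose ratio was lower in SLO ½ (-0.12) and higher in SLO (0.17) than in VEH. EIF4A2 to EIF4A1 overlapped between all groups (exact permutation p = 0.60 for SLO and 0.50 for SLO ½, n = 3 each), at counts of EIF4A1 limited by shared exons.

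**Figure D4:**
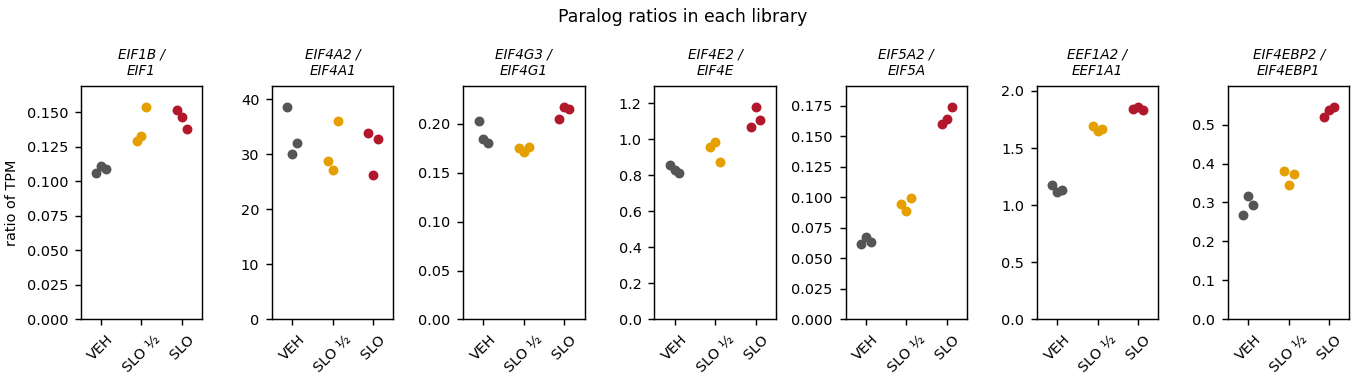
Ratio of the TPM of 2 paralogs (vertical axes, from 0) in each library of VEH, SLO ½ and SLO, for 7 pairs. EIF5A2 over EIF5A climbs from 0.0616 to 0.0674 in VEH to 0.160 to 0.174 in SLO, and EEF1A2 over EEF1A1 from at most 1.18 in VEH to at least 1.65 in SLO ½.

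Of the 6 tested factors of start-site selection and subunit joining, 4 fell in SLO (66.7%) and none rose. Over all tested genes, 32.1% fell and 32.9% rose. EIF1, which guards the choice of the start codon, had 665, 622 and 625 TPM in VEH, 548, 529.8 and 524 in SLO ½ and 532, 515 and 519 in SLO. It fell about as much at either dose (-0.21 ± 0.04 (SE, adjusted p = 5.50e-05) in SLO ½ and -0.28 ± 0.04 (SE, adjusted p = 5.32e-07) in SLO), and the doses overlapped. EIF5, which makes eIF2 hydrolyse its GTP, had 238, 271 and 269 TPM in VEH, 221, 224 and 228 in SLO ½ and 218, 218 and 217 in SLO (-0.25, adjusted p = 1.10e-05). EIF5B, the subunit-joining GTPase, had 229, 244 and 247 TPM in VEH, 222, 226 and 224 in SLO ½ and 208, 200.2 and 209 in SLO, and passed in SLO (-0.21, adjusted p = 2.58e-05) and not in SLO ½ (0.226). EIF1B, the paralog of EIF1, did not pass in either dose (0.15 in SLO, adjusted p = 0.0576). It passed in SLO when libraries were scaled by size alone (0.22, adjusted p = 0.00574) and without SLO replicate 3 (0.18, adjusted p = 0.033). With at least 10 counts in every library it also passed in SLO (0.17, adjusted p = 0.0286) and in SLO ½ (0.16, adjusted p = 0.0429). Scaling by size alone let it pass in SLO ½ too (0.19, adjusted p = 0.0181). EIF1AD, whose protein resembles eIF1A, rose in SLO ½ (0.15, adjusted p = 0.0282) and was at 0.0055 in SLO. The rise was lost without VEH replicate 1 or SLO ½ replicate 2 or 3 (adjusted p = 0.152, 0.188 and 0.0898) and in DESeq2 (0.0886).

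The enzymes that modify elongation factors were weakly expressed and mixed in direction: of 6 tested, 3 fell (50%) and 1 rose (16.7%) in SLO. Over all tested genes these shares were 32.1% and 32.9%. EEF1AKMT1, EEF1AKMT2 and EEF1AKMT3 methylate lysines of eEF1A. EEF1AKMT3 had 23.2, 19.6 and 20.2 TPM in VEH, 16.9, 16.4 and 16.03 in SLO ½ and 14.7, 13.9 and 13.7 in SLO, a fall of -0.56 ± 0.096 (SE, adjusted p = 8.36e-06). EEF1AKMT2 had 9.78, 10.7 and 11.9 TPM in VEH, 8.44, 9.31 and 8.18 in SLO ½ and 8.63, 8.18 and 8.98 in SLO, and fell in SLO by -0.32 ± 0.098 (SE, adjusted p = 0.00466). EEF1AKMT1 went the other way, with 9.94, 10.2 and 13.8 TPM in VEH, 12.5, 13.01 and 14.8 in SLO ½ and 18.8, 14.2 and 17.2 in SLO, a rise of 0.55 ± 0.17 (SE, adjusted p = 0.00458). The third that fell was EEF2K, the kinase that inactivates eEF2 (-0.16 in SLO and -0.26 in SLO ½). Its call in SLO was lost without VEH replicate 1 or 2 or SLO replicate 3 (adjusted p = 0.0829, 0.066 and 0.11) and in DESeq2 (0.0539).

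The 3 members higher in SLO than in SLO ½ were EIF4E3 (0.86, adjusted p = 4.36e-04), EIF4EBP2 (0.35) and EIF4G3. EIF5A2, which rose in both doses, did not differ between them beyond the threshold (0.082, adjusted p = 0.179). The largest differences in the other direction, after the sparsely counted EIF5AL1 (-1.13), were EIF5A (-0.73), EIF2A (-0.52), EEF1A1 (-0.49) and EIF3E (-0.45). Several members were near VEH at the lower dose and lower only at the higher dose by the test between doses, among them EIF6 (-0.36 between the doses, adjusted p = 3.85e-07), EEF1A2 (-0.35, adjusted p = 8.18e-08) and EIF3G (-0.28, adjusted p = 1.17e-05). EIF1, EIF5 and EIF2D did not differ between the doses beyond the threshold (adjusted p = 0.185, 0.14 and 0.0878).

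The 5′TOP class was looked at by name and by sequence. Of 9 translation factors on the textbook list, 8 were tested and all 8 fell in SLO (median -0.60), beside 32.1% of all tested genes. In SLO ½, 7 fell (87.5%, median -0.28), beside 25.3% of all tested genes. The tested ones were EEF1A1, EEF1B2, EEF1D, EEF2, EIF3E, EIF3F, EIF3H and EIF4B, and EEF1G was the one not measured. By sequence, 47 tested members had a RefSeq promoter of GRCh38.p14, and 13 of them (27.7%) had an unbroken run of at least 5 C or T bases that covers an annotated start, beside 12.1% of 10759 tested genes and 11.9% of 27305 genes with a promoter sequence. The runs were 17 bases in EEF1B2, 15 in EIF2S3, 14 in EIF3D and EIF3F, and 11 in EIF2A and EIF3M. They were 9 bases in EEF1A1, EEF2 and EIF3K, 8 in EIF2D, 7 in EIF4A2, 6 in EIF4B and 5 in EIF4G1. EEF1A1, EEF1B2, EEF2, EIF3F and EIF4B are in both sets, so the views by name and by sequence overlap. The search was made on the sense strand only.

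All 13 members with a run fell in SLO, with log2 fold changes from -1.07 to -0.19 and a median of -0.49. Of the other 34 members, 20 fell (58.8%) and 3 rose, with a median of -0.16. In SLO ½, 11 of the 13 fell (84.6%) and 11 of the 34 (32.4%), with medians of -0.21 and -0.059. Among all tested genes, those with a run had a median of -0.099 in SLO and 43.6% of them fell, beside 0.0059 and 33.5% for those without. EIF5A has none at any of its annotated starts and fell by 0.98 on the log2 scale, and EIF3B, EIF3I and EIF2B4 lack one and fell by 0.46 to 0.49. The windows printed above for EIF4EBP2 and EIF5A2 hold no C or T run over the start, and were picked for that and for their rise. A run in these letters is a description of the annotated start, not of the start used in HMC3, and EIF3E, EIF3H and EEF1D of the textbook list are not among the 47.

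**Figure D5:**
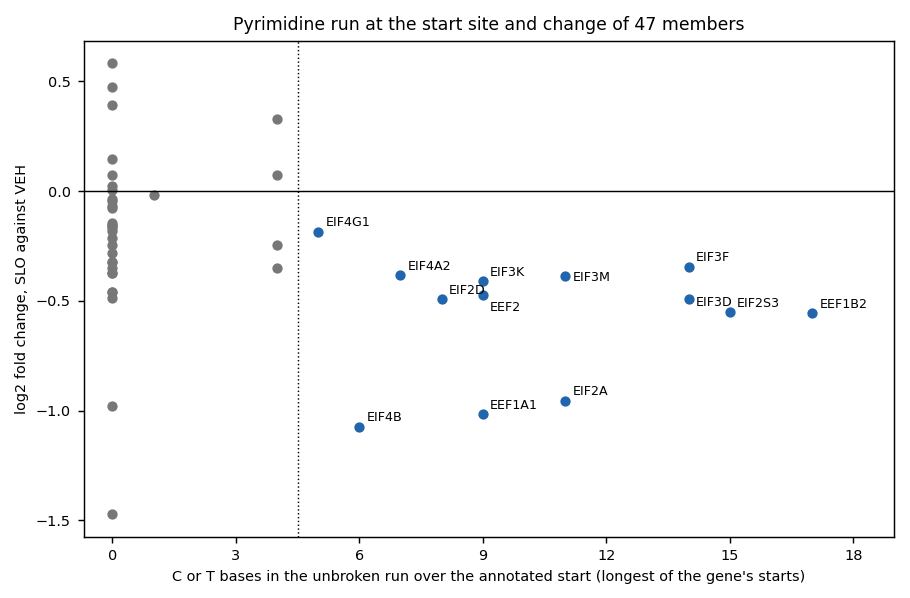
Log2 fold change in SLO against VEH (vertical axis) of 47 members by the length of the unbroken C or T run over the annotated start (horizontal axis, in bases, the longest of the gene's starts), with the 13 members of at least 5 bases in blue. All 13 lie below 0, from -0.19 (EIF4G1) to -1.07 (EIF4B). The other 34 members, some with shorter runs, lie on both sides, with a median of -0.16. Of these, 20 fell (58.8%) and 3 rose by the test, beside 32.1% and 32.9% of all tested genes.

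Other genes that serve translation were counted from lists. For comparison, 32.1% of all tested genes fell and 32.9% rose in SLO, and 25.3% fell in SLO ½. Of 14 poly(A)-binding proteins and other regulators of initiation, 13 fell in SLO and none rose, with a median of -0.41. The list mixes genes that promote translation with genes known to repress it. PDCD4, LARP1, PAIP2, CYFIP1 and DDX6, which fell, and PAIP2B, which did not pass (-0.091, adjusted p = 0.463), can act as repressors. PDCD4, an inhibitor of eIF4A, fell by -0.81 ± 0.049 (SE, adjusted p = 1.25e-14), and LARP1, which binds 5′TOP mRNAs, by -0.62 ± 0.041 (SE, adjusted p = 9.16e-14). Of 10 genes of the cytosolic aminoacyl-tRNA synthetase complex, 9 fell in both doses, with a median of -0.49 in SLO. LARS1, which charges tRNA with leucine, fell by -0.67 ± 0.04 (SE, adjusted p = 9.60e-15). Of 10 mitochondrial translation factors, 8 fell in SLO and 5 in SLO ½ and none rose. MTIF2, the mitochondrial initiation factor, changed by -0.60 ± 0.047 (SE, adjusted p = 4.97e-12) and TUFM, the mitochondrial elongation factor, by -0.34 ± 0.039 (SE, adjusted p = 8.88e-09). Of 7 termination and selenocysteine factors, 4 fell and 1 rose in SLO: GSPT1, the GTPase of termination, fell by -0.23 ± 0.039 (SE, adjusted p = 6.69e-06), and PELO, which rescues stalled ribosomes, rose by 0.37 ± 0.059 (SE, adjusted p = 3.18e-06).

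6 members had too few reads to test. EIF2S3B, a copy of EIF2S3, had 2 to 7 reads per library, EIF4E1B 0 to 3, and EIF3CL and EIF4EBP3 0 or 1. EEF1G and the readthrough gene EEF1AKMT4-ECE2 had 0 in all libraries, where both lie under other genes on the same strand, so a count of 0 sets no limit on their expression. EEF1AKMT4 was tested with 2 to 14 reads per library and did not pass in any comparison. EEF2KMT, an enzyme that methylates eEF2, and EIF2B3 did not pass in any comparison either. When the 11 tested members with at least 10% of exon bases shared on their strand or with near-identical copies were left out, a choice made after seeing the data, 33 of 48 fell and 4 rose in SLO, and 22 fell and 5 rose in SLO ½. Over all tested genes, 32.1% fell and 32.9% rose in SLO, and 25.3% fell and 26.7% rose in SLO ½.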

How the data were processed

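RNA of HMC3 cells was measured in 9 libraries, grouped by the treatment given in the labels. Per the labels and the study's methods, the authors made poly(A)-selected KAPA RNA HyperPrep libraries, trimmed reads with Trimmomatic 0.38 and aligned them to GRCh38 with STAR 2.7.1a, which also gave the read counts per gene. The deposited count table is marked as stranded and holds reads that matched several places in a line of their own. The deposited values are raw counts of reads per gene, with whole numbers and no normalization, and TPM, which the authors scaled for gene length and library size. The lines of the count table that name no gene held 0.883% to 0.984% (unmapped), 7.16% to 8.52% (several places), 5.54% to 8.38% (no gene) and 3.03% to 3.26% (ambiguous) of reads and were left out. The annotation release is not given in the sources used here. All 66 members were found in GENCODE v44, 65 of them at the same coordinates.

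Counts were tested with edgeR 4.0.16 in R 4.3.3: filterByExpr, TMM scaling (0.9678 to 1.035), and a quasi-likelihood fit of the 3 groups on all 9 libraries, adjusted over all tested genes by Benjamini-Hochberg and called at adjusted p below 0.05. Levels between genes are in TPM, and fold changes come from the counts. Paralog ratios were tested by exact permutation. Alternatives were DESeq2 1.42.0, limma 3.58.1 on log2(TPM + 1) and log2(TPM + 0.1), other scalings and filters, a replicate block and leaving out each library. The edgeR script was tested on simulated data. Count depth limits precision through counting error only in part, since reads carried no molecular identifiers.

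The members, role groups, pathway lists and markers were chosen with earlier results of these data known, and nothing here is independent support for their direction. Named with values were, in each role group, up to 3 members of smallest p for SLO over VEH, called members against their group's majority, paralog pairs and members whose direction differed between doses. Others (EIF1AD, EIF2B5, EIF3J, EIF4A3, EEF2K and the remaining eIF2, eIF3 and eIF4G genes) were named after their values were seen. Of a pathway list, the 2 genes of smallest p were named (repressors of initiation were added after their values were seen), except that 1 gene of the synthetase complex and the summed level of the microglia markers are not reported here. Start sites came from RefSeq promoters (GRCh38.p14), matched by symbol for 47 of 59 tested members.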

Additional observations from a re-analysis of the deposited data

How the results depend on the processing

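In SLO against VEH, 44 to 47 members were called when each library was left out in turn, and 37 to 47 in every other setting, beside 47, where the 37 left out members with shared exons or close copies. In SLO ½ against VEH the counts were 29 to 32 and 27 to 34, beside 32, and in SLO against SLO ½ 36 to 40 and 25 to 42, beside 42. The 25 came from limma on log2(TPM + 1) without a filter on low values. The median log2 fold change of the members kept its sign throughout. In SLO it was -0.207 by library size alone, -0.304 without a filter on low counts, -0.258 with at least 10 counts in every library and -0.301 to -0.275 with a library left out. In SLO ½ it was -0.12 with DESeq2 size factors, -0.0595 by library size alone, -0.153 without a filter, -0.09 with at least 10 counts, -0.148 and -0.152 with limma on log2(TPM + 1) and log2(TPM + 0.1), -0.148 unfiltered, and -0.134 to -0.119 with a library left out. Between the doses it was -0.149 by library size alone, -0.139 with either TPM fit and -0.121 unfiltered. Scaling by library size alone moved the median of all genes to 0.0888 (SLO), 0.0652 (SLO ½) and 0.0233 (between doses), and the shares of all genes that rose and fell to 38.2% and 26.3% (SLO) and to 31.5% and 20.7% (SLO ½). Relative to that shift the members stayed lower. The median of members with a start-site run was -0.41 in SLO when 4 bases sufficed, and -0.269 between the doses when 6 were required or, a definition added after seeing the data, when a C at the start had to begin a run of 5. Whether the replicate numbers pair the libraries could not be settled. Deviations of same-numbered libraries correlated weakly and always positively, at 0.00277 to 0.0873. Those of differently numbered libraries correlated at -0.0621 to 0.037, a range that overlaps the first. With a replicate block, 47, 32 and 42 members were called in the 3 comparisons, as without it.

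Sign changes were limited to values near 0 that did not pass in edgeR. In SLO against VEH, scaling by library size alone gave 0.0384 for EIF4ENIF1, 0.0594 for EIF4G3 and 0.00588 for EIF3J, at least 10 counts gave 0.00813 for EIF4G3, and EIF1AD was at -0.0142 without a filter and -0.00163 in a fit of the 2 groups. With a library left out these spanned -0.051 to 0.0121 (EIF4G3), -0.0746 to 0.0154 (EIF4ENIF1), -0.0418 to 0.0334 (EIF1AD) and -0.0509 to 0.0891 (EIF2B5). In SLO ½, library size alone gave 0.0476 for EIF2B1, 0.0374 for EIF6, 0.00194 for EIF2S1 and 0.0109 for EIF4G2, and at least 10 counts gave 0.0169 for EIF2B1 and 0.00677 for EIF6. EIF4E2 was at -0.00488 and EIF3G at -0.00515 with DESeq2 size factors, -0.00477 and -0.0049 in DESeq2, and -0.0103 and -0.0105 without a filter. With limma on log2(TPM + 1), filtered or not, EIF4E2 was at -0.0353, EIF3G at -0.0341, EEF1A2 at -0.0175 and EEF1D at -0.0113, and on log2(TPM + 0.1) they were at -0.0361, -0.0343, -0.0176 and -0.0114. With a library left out the spans were -0.0265 to 0.0294 (EIF4E2), -0.0269 to 0.0443 (EIF3G), -0.015 to 0.061 (EEF1A2), -0.0174 to 0.0562 (EEF1D), -0.0251 to 0.0101 (EIF2B1), -0.041 to 0.0241 (EIF6) and -0.152 to 0.0545 (EIF4A1). Between the doses EIF4A3 was at 0.0118 by library size alone, 0.0221 and 0.0223 with the TPM fits, and -0.0359 to 0.014 with a library left out. EIF1B then spanned -0.0393 to 0.0696, EEF1AKMT2 -0.0838 to 0.025, and the log2 ratio of EIF4A2 to EIF4A1 -0.0691 to 0.133. The cause of these changes was not tested. Depth limited EIF4E3, EIF5AL1, EEF1AKMT4, EIF3C and EIF4A1, and shared exons or close copies limited the last 4 and EEF1G.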
